A study of Mus musculus with 19 samples.

Results

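The genes described here encode RNA-binding proteins, splicing regulators and RNA helicases, and their extrachromosomal circular DNA (eccDNA) was followed in mouse cervical spinal cord. They were taken by name, as all genes of the deposited table whose symbol begins like that of an Rbfox, Celf, Elavl, Hnrnp, Srsf, Rbm, Rbms, Khdrbs, Nova, Qk, Msi, Ptbp, Tia1, Tial, Ddx, Dhx, Cpeb, Pum or Igf2bp gene. The names themselves were chosen with earlier results of these data known. The rule took 59 of 8336 genes, of which 58 are protein-coding. The remaining one, *Dhx58os*, is an antisense RNA gene that matched only by its name. A symbol is not proof of function, since *Ddx11*, for example, encodes a DNA helicase.

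The ALS group held 9 libraries, each from 1 symptomatic male (strain name B6.Cg-Tg(SOD1*G93A)1Gur/J), in which a mutant human *SOD1* gene (hSOD1G93A) is overexpressed constitutively. Mice entered the group only when their motor symptoms appeared between 18 and 21 weeks of age. The control group held 10 libraries, each from 1 C57BL/6J male of matched age without the transgene. From the whole cervical cord, with all its cell types together, 400 ng of DNA were digested for 7 days with exonuclease V, which removes linear DNA, and the circles left were copied for 48 h by rolling circle amplification (RCA).

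A value is log2(PpGC + 1), where PpGC (produced per gene circles) is the number of reads split across the junctions of all eccDNAs that overlap a gene, scaled up for short genes and not scaled between samples. Genes are listed at 0 where the eccDNAs kept, those with at least 2 split reads, left them uncovered. RCA copies are not independent molecules, so split reads do not count circles. In bulk cord, more circles per cell and more cells that hold a circle cannot be told apart, and no cell type can be assigned to a circle.

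RNA-binding proteins recognise short motifs or structures in transcripts and decide how these are spliced, exported, stored, translated and degraded. Neurons rely on several families of them, among them Rbfox, Nova, Celf and Elavl, for splicing programmes and for mRNA stability at synapses. DEAD-box (Ddx) and DEAH-box (Dhx) helicases unwind RNA in ribosome assembly, splicing and antiviral sensing. Mutations in several RNA-binding proteins cause familial ALS, while the mouse model used here rests on a mutant *SOD1*, which encodes a superoxide dismutase. The values below describe DNA circles from these loci, not the expression of the genes.

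The libraries differed in load. The number of all genes with an eccDNA was 1301 ± 459 (SD, n = 9, lowest 694, highest 2204) in ALS and 243.4 ± 208 (SD, n = 10, lowest 57, highest 723) in controls. Only ALS 6 and Control 1 overlapped in this number. As a covariate it can hardly be separated from the group, so differences fitted with it are extrapolations. The split reads on genes ranged from 74016 to 391394 in ALS and from 3583 to 123387 in controls. These genic split reads are summed over the 8088 genes with an annotated length, so a read counts once for each gene its eccDNA overlaps. Among ALS libraries the share of genes on chromosome 1 ran from 1.60% to 13.8%, that on chromosome 11 from 1.02% to 8.17%, and that on chromosome 16 from 1.43% to 5.69%, whereas it stayed between 7.65% and 9.44% on chromosome 2 and between 5.08% and 7.77% on chromosome 9. Which step of the preparation or which biology set these shares was not tested.

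Members of the list followed the load. A median of 10 members (lowest 3, highest 18) carried an eccDNA in an ALS library, against a median of 1.5 (lowest 0, highest 7) in a control. The means were 10.3 ± 4.90 (SD, n = 9) and 2.3 ± 2.50 (SD, n = 10), a ratio of 4.49, while the ratio over all genes was 5.35. Relative to all genes with an eccDNA in the same library, members made up 0.764% ± 0.172 (SD, n = 9) in ALS and 0.762% ± 0.652 (SD, n = 10) in controls. The mean share of the list was thus close in both groups, and it varied more among controls, which hold few genes.

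The lowest ALS library, ALS 6, with 3 members, lay below Control 2 with 7 and Control 1 and Control 8 with 5 each, so the groups overlapped. Control 3, Control 5 and Control 6 held none of the 59 genes. These controls were also the 3 libraries with the fewest genes, 109, 57 and 94. ALS 3 held the most members, 18, and the most genes, 2204.

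**Figure D1:**
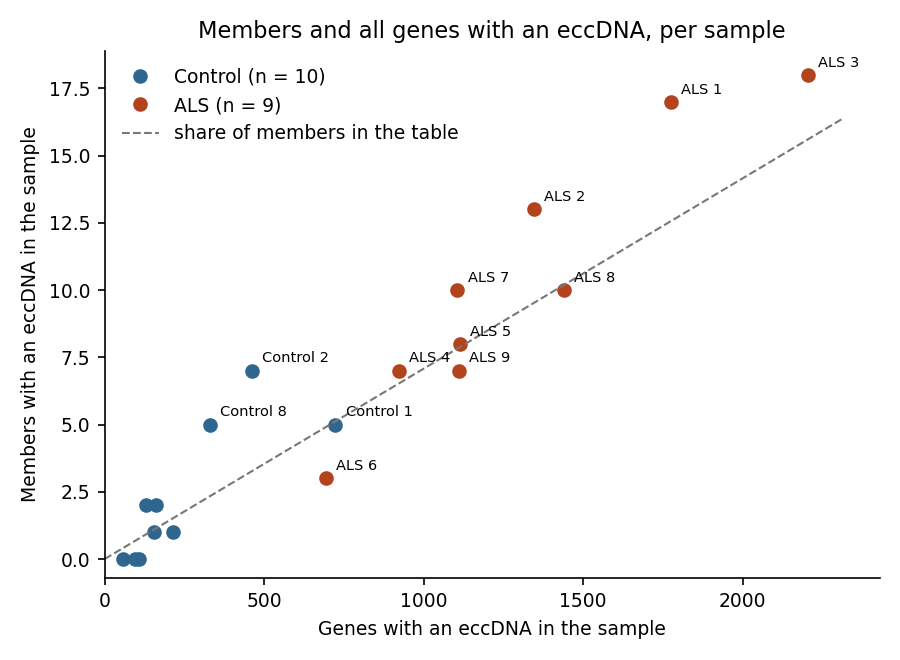
Number of list members with an eccDNA (vertical axis) against the number of all genes with an eccDNA (horizontal axis) in each of the 10 control and 9 ALS samples, 1 point per sample. The dashed line is the share of members in the table (59 of 8336), and samples of both groups lie on either side of it, with 18 members in ALS 3 and 0 in 3 controls.

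Most members were seen once. Of the 59 genes, 38 (64.4%) carried an eccDNA in 1 sample, 12 in 2 samples and 9 (15.3%) in 3 or more. Over all genes these shares were 66.2% for 1 sample and 15.3% for 3 or more. An eccDNA occurred in ALS samples only for 42 members (71.2%, all genes 75.0%), in control samples only for 6 (10.2%, all genes 10.9%), and in both groups for 11 (18.6%, all genes 14.0%). Any pair of ALS libraries shared between 1 and 5 members, with a median of 3 over the 36 pairs, and any pair of control libraries between 0 and 2, with a median of 0 over the 45 pairs.

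The mean value was higher in ALS for 51 members (86.4%) and lower for 8, against 86.5% higher over all genes. The median difference of means, ALS minus control, was 1.12 on the log2 scale for the members and 1.19 for all genes. The rule used here was a difference above 1 with an unadjusted p under 0.01 in a test that assumes equal variances, the thresholds of the study's methods, which do not state whether p was one- or two-sided. Read as two-sided, 1 member passed as higher in ALS (*Rbms3*), where 1.33% of all genes passed. At a p under 0.05, 5 members passed (*Ddx10*, *Khdrbs2*, *Rbfox1*, *Rbfox2* and *Rbms3*), beside 4.2% of all genes. Read as one-sided at 0.01, the rule passed 3 members (*Rbfox1*, *Rbfox2* and *Rbms3*), beside 2.27% of all genes. No member was lower by the rule in reverse, with that test at p under 0.01 or under 0.05, by limma or by exact permutation, and neither was any other gene at p under 0.01 (0%). After Benjamini-Hochberg adjustment over all 8336 genes no member stayed below 0.05 in that test. The smallest exact permutation p that 9 against 10 samples can give, 1.08e-05, would reach 0.0902 after adjustment if 1 gene had it. The 38 members found in 1 sample could not pass in either direction. Their p in the equal-variance test was 0.305 (ALS) or 0.357 (control) whatever the value. Nor could the 12 members found in 2 samples, with an equal-variance p of 0.128 or more and an exact permutation p of 0.211 or more.

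**Figure D2:**
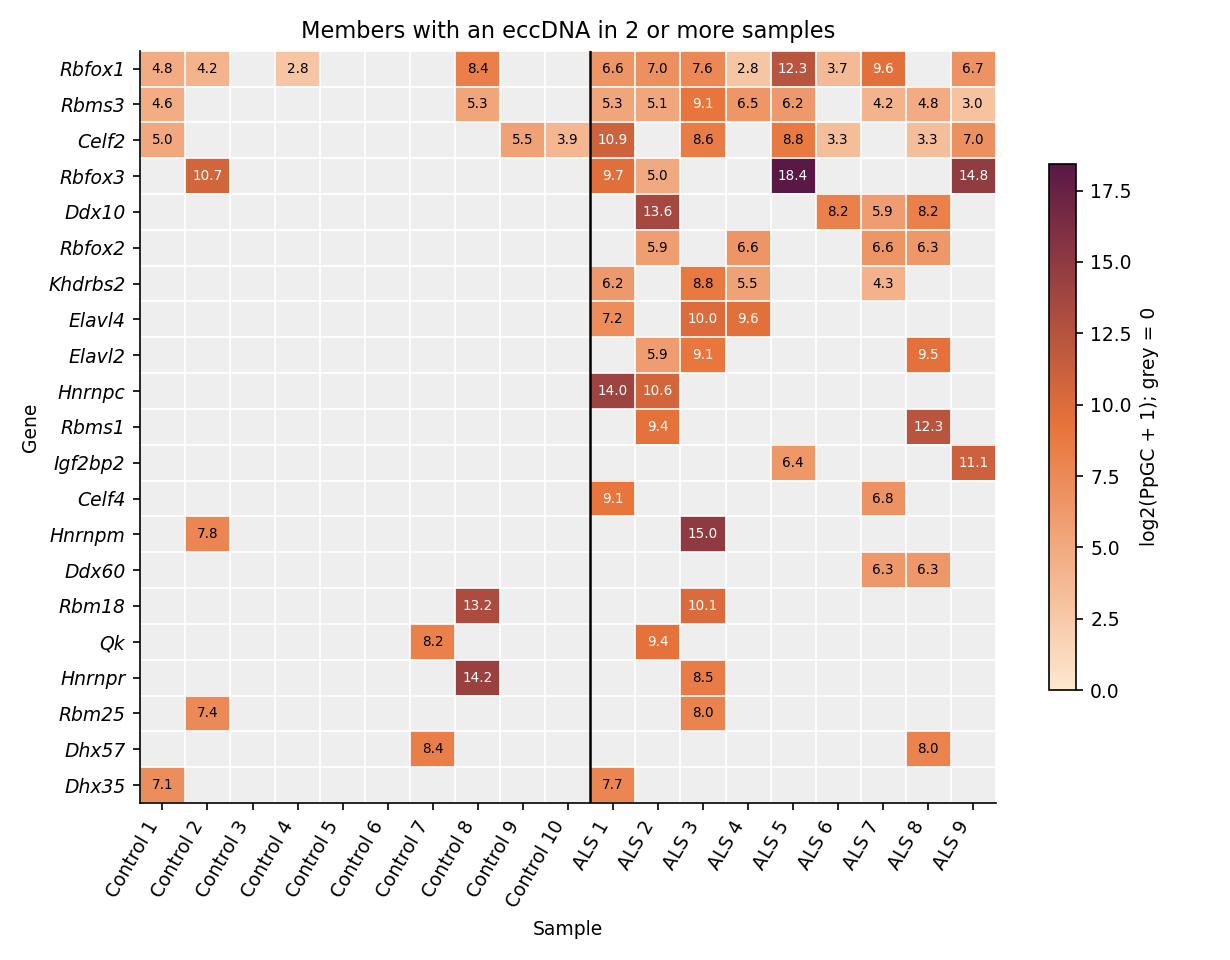
log2(PpGC + 1) of the 21 members with an eccDNA in 2 or more samples (rows), in the 10 control samples left of the vertical line and the 9 ALS samples right of it. Grey cells are 0; *Rbfox1* fills the most cells, 12, followed by *Rbms3* with 10 and *Celf2* with 9, and no control holds more than 4 of the genes shown.

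All 3 Rbfox genes were in the table, and each carried an eccDNA in at least 4 ALS libraries. These proteins bind a shared motif in introns and promote or repress neighbouring exons, and *Rbfox3* encodes NeuN, the antigen widely used to stain neuronal nuclei. *Rbfox1*, at chr16:5885355-7411526 on the plus strand (mm10), spans 1526 kb and is the longest member.

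*Rbfox1* carried an eccDNA in 8 of 9 ALS libraries, where its values ran from 0 (ALS 8) over a median of 6.72 to 12.30 (ALS 5). In 4 of 10 controls it was present, with 4.76 in Control 1, 4.20 in Control 2, 2.77 in Control 4 and 8.35 in Control 8, and the other 6 controls were at 0. The groups overlapped, because Control 8 lay above 6 of the ALS libraries with an eccDNA and ALS 4 (2.77) and ALS 6 (3.66) lay below 3 of the controls.

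The means were 6.25 ± 3.68 (SD, n = 9) and 2.01 ± 2.93 (SD, n = 10), a difference of 4.24 with an exact permutation p of 0.0135, or 0.581 adjusted over all genes. With a p of 0.0125 in the equal-variance test, *Rbfox1* did not pass the two-sided rule. It passed with a one-sided p, when Control 8 (difference 4.95), ALS 4 (4.68) or ALS 8 (5.02) was left out, and with limma's moderated test on all samples (p = 0.00526). Its difference was 1.56 with the number of genes per sample as covariate (permutation p = 0.594), 2.75 with equal totals and 1.26 with a pseudocount of 100, and it did not pass in these settings. In ALS 8, the ALS library without an *Rbfox1* circle, the share of genes on chromosome 16 was the lowest of the ALS group, 1.43%, and its part in the missing value was not tested.

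In split reads, the *Rbfox1* values rested on 1739 in ALS 5, 269 in ALS 7, 67 in ALS 3, 43 in ALS 2, 36 in ALS 9, 33 in ALS 1, 4 in ALS 6 and 2 in ALS 4. The controls gave 112 (Control 8), 9, 6 and 2. Within the ALS group the reads behind a value of this gene therefore ran from the minimum of 2 to 1739.

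*Rbfox3* (chr11:118489762-118911597, minus strand) carried an eccDNA in 4 ALS libraries, with 5.02 in ALS 2, 9.68 in ALS 1, 14.82 in ALS 9 and 18.45 in ALS 5, and in Control 2 with 10.72. The difference was 4.26 (5.33 ± 7.27, SD, n = 9, against 1.07 ± 3.39, SD, n = 10; exact permutation p = 0.130), and 2.62 without ALS 5. The value of ALS 5 rested on 33947 split reads, which were 9.39% of the summed genic split reads of that library (95% Clopper-Pearson interval 9.29% to 9.48%, counting error only), while ALS 2 gave 3 reads. The same number of reads stood in ALS 5 at *Gm25040*, a miRNA gene inside *Rbfox3*, and enters that sum again there.

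*Rbfox2* (chr15:77078990-77307004, minus strand), the more widely expressed paralogue, was present in 4 ALS libraries and no control. Its values were alike, 5.89 in ALS 2, 6.30 in ALS 8 and 6.62 in both ALS 4 and ALS 7, with 3 to 5 split reads each. The difference was 2.83 (2.83 ± 3.36, SD, n = 9, against 0; exact permutation p = 0.0325, adjusted 0.581). It passed the rule in each of the 5 runs that left out an ALS library without the circle (ALS 1, ALS 3, ALS 5, ALS 6 or ALS 9; difference 3.18) and with a one-sided p, and not on all samples with a two-sided p. With the number of genes as covariate the difference was 4.19 (permutation p = 0.0543).

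*Rbms3*, which encodes a cytoplasmic protein that binds single-stranded nucleic acids and AU-rich RNA, was the member that passed. It lies at chr9:116572746-117629913 on the minus strand and spans 1057 kb. Values in ALS ran from 0 (ALS 6) over a median of 5.13 to 9.13 (ALS 3), with an eccDNA in 8 of 9 libraries. Only Control 1 (4.64) and Control 8 (5.27) had one among 10 controls. The 2 controls fell inside the ALS range, above ALS 7 (4.17) and ALS 9 (2.97).

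The means of *Rbms3* were 4.91 ± 2.52 (SD, n = 9) and 0.99 ± 2.09 (SD, n = 10), and the difference was 3.92 (exact permutation p = 0.00265, adjusted over all genes 0.487). It passed with each of the 19 samples left out in turn, the exact p then lying between 0.000594 and 0.00720. With the number of genes per sample as covariate its direction turned, to −0.83 (permutation p = 0.590), and it no longer passed with equal totals per sample (difference 2.59) or with a pseudocount of 100 in place of 1 (difference 0.59). In ALS 6, the ALS library without an *Rbms3* circle, the share of genes on chromosome 9 was 6.51% (5.08% to 7.77% among ALS libraries) and the number of genes was the lowest of the group, 694, and their part in the missing value was not tested.

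The split reads of *Rbms3* were 2 to 164, with 164 in ALS 3, 26 in ALS 4 and 22 in ALS 5. They were not whole with the 1057168 bp of GENCODE M21. They came out whole with a gene length of 1299936 bp, which was fitted so that the lowest value is 2 reads. The split reads given for *Rbms3* rest on that assumption. The 10 values of *Rbms3* were the only ones of the 116 member values above 0 that were not whole with the M21 length, within a tolerance of 0.02 reads.

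*Rbms1*, a relative of *Rbms3*, was present in ALS 2 (9.43, 33 reads) and ALS 8 (12.31, 243 reads) and absent from controls (difference 2.41, exact permutation p = 0.211).

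**Figure D3:**
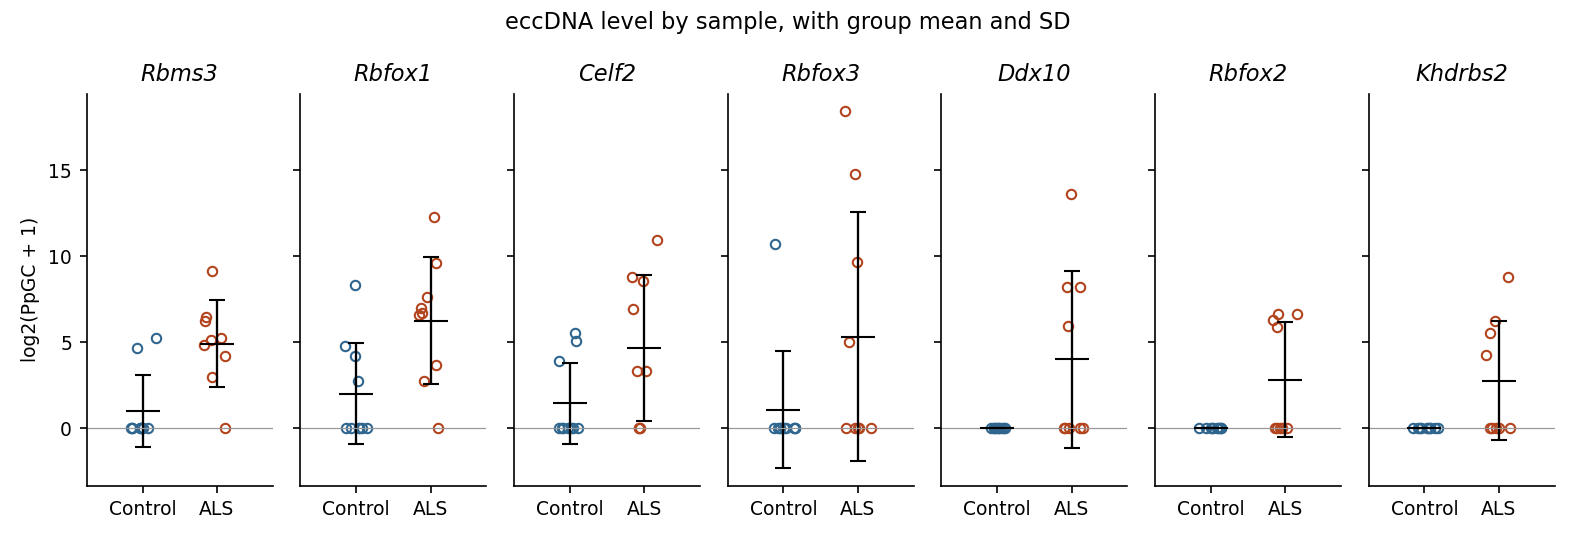
log2(PpGC + 1) of 7 members in each control (n = 10) and ALS (n = 9) sample, 1 open circle per sample, with the group mean (long bar) and SD (whiskers). *Rbms3* and *Rbfox1* are above 0 in 8 of 9 ALS samples, while *Ddx10*, *Rbfox2* and *Khdrbs2* are above 0 in 4 ALS samples and 0 in every control.

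*Celf2*, whose product binds GU-rich RNA and regulates splicing and mRNA stability, is the third longest member (970 kb; chr2:6539694-7509563, minus strand) and the third most recurrent. Its ALS values ran from 0 in ALS 2, ALS 4 and ALS 7 over a median of 3.34 to 10.94 in ALS 1. Control 1 (5.04), Control 9 (5.55) and Control 10 (3.88) also held one, all above the 3.34 of ALS 6 and ALS 8. The means were 4.66 ± 4.27 (SD, n = 9) and 1.45 ± 2.36 (SD, n = 10), with a difference of 3.22 (exact permutation p = 0.0547) that turned to −1.99 with the number of genes as covariate (permutation p = 0.462). *Celf4*, a neuronal paralogue, was present in ALS 1 (9.14) and ALS 7 (6.82), and *Celf1* in ALS 8 alone (13.21, 169 reads).

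*Elavl4* and *Elavl2* encode the neuronal Hu proteins HuD and HuB, which stabilise mRNAs with AU-rich elements. *Elavl4* was present in ALS 1 (7.23), ALS 4 (9.61) and ALS 3 (9.99), and *Elavl2* in ALS 2 (5.91), ALS 3 (9.06) and ALS 8 (9.47). Neither was present in a control. The differences were 2.98 and 2.72, both with an exact permutation p of 0.0867. Both lie on chromosome 4, about equally long (148 kb and 150 kb), and ALS 3 was the only library with both.

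*Khdrbs2* encodes SLM1, a splicing regulator of the STAR family that acts in neurons. Its eccDNA was present in ALS 7 (4.27), ALS 4 (5.54), ALS 1 (6.21) and ALS 3 (8.81), with 2 to 49 split reads, and in no control. The difference was 2.76 (2.76 ± 3.47, SD, n = 9, against 0; exact permutation p = 0.0325), and −1.31 with the number of genes as covariate (permutation p = 0.464). On chromosome 1, where *Khdrbs2* lies, ALS 4 and ALS 7 had the highest shares of genes, 13.8% and 10.3%, and ALS 1 and ALS 3 lower ones, 5.33% and 6.45%. Its paralogue *Khdrbs3* was seen in ALS 4 alone (12.19, 182 reads).

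*Nova1* (11.20, Control 2), a neuronal splicing regulator, and *Ptbp2* (12.40, Control 8), a repressor of neuronal exons that is active before neurons mature, each had a circle in 1 control only. Their paralogues *Nova2* (7.82, ALS 2) and *Ptbp3* (6.85, ALS 1) each had one in 1 ALS library with 2 split reads. *Qk*, the quaking gene that oligodendrocytes need for myelin, was present once in each group, with 9.41 in ALS 2 and 8.25 in Control 7. *Msi2*, a translational regulator, was present in ALS 1 (5.58). Despite its length of 379 kb it was found in this 1 library, below the mean of 4.02 samples for all genes over 200 kb.

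The 4 Srsf genes, which encode serine/arginine-rich activators of splicing, were present in 1 ALS library each (*Srsf9*, *Srsf10*, *Srsf6* and *Srsf11*), with 2 to 6 split reads and differences of 0.93 to 1.28. Of the hnRNP genes, *Hnrnpc* was present in ALS 1 (14.05, 117 reads) and ALS 2 (10.64, 11 reads). *Hnrnpm* was present in ALS 3 (14.97) and Control 2 (7.78), and *Hnrnpr* in Control 8 (14.24) and ALS 3 (8.52). Their differences of 2.74, 0.89 and −0.48 were within the spread of the samples (exact permutation p = 0.211, 0.737 and 1).

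The Rbm genes share an RNA recognition motif and differ widely in role. Of the 11 in the table, 7 were present in ALS only, 2 in controls only (*Rbm39* and *Rbm47*) and 2 in both (*Rbm25* and *Rbm18*). *Rbm45*, whose product is found in protein inclusions of ALS tissue, had one of the 2 highest values of the list, 19.84 in ALS 9, with 2921 split reads and no circle elsewhere. *Rbm39*, a coactivator of splicing, reached 13.74 in Control 10 with 102 reads (difference −1.37, exact permutation p = 1; −0.58 with the number of genes as covariate, permutation p = 0.798). *Rbm18* reached 13.17 in Control 8 and 10.07 in ALS 3.

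The 3 Cpeb genes, which control cytoplasmic polyadenylation, were found in 1 ALS library each, and *Cpeb2* in ALS 3 rested on 1993 split reads (17.25), 1.13% of that library's genic reads (95% Clopper-Pearson interval 1.08% to 1.18%, counting error only). *Igf2bp2*, which protects target mRNAs, was present in ALS 5 (6.43) and ALS 9 (11.08). *Tial1*, whose product assembles stress granules, was present in ALS 3 (9.98, 5 reads). No Pum gene was in the table.

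Genes with a Ddx name formed 11 members and those with a Dhx name 7, *Dhx58os* included. *Ddx10*, required for ribosome assembly, was found in the most samples of them, 4 (chr9:53098635-53248053, minus strand, 149 kb). It was present in ALS 7 (5.92), ALS 6 and ALS 8 (8.22 each) and ALS 2 (13.61) and in no control, with a difference of 4.00 (4.00 ± 5.14, SD, n = 9, against 0; exact permutation p = 0.0325, adjusted 0.581). With the number of genes as covariate the difference was 6.25 (permutation p = 0.0608). Without length scaling it was 1.91, and with a pseudocount of 100 it was 1.29. ALS 2 rested on 422 split reads and the other three on 2 to 10. *Ddx60*, an antiviral helicase, was present in ALS 7 and ALS 8 with 2 reads each.

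The other genes with a Ddx name were each present in 1 sample. In ALS these were *Ddx11*, *Ddx49*, *Ddx46*, *Ddx20* (Gemin3 of the SMN complex, 3 reads), *Ddx24*, *Ddx1*, *Ddx31* and *Ddx58* (the RNA sensor RIG-I, 2 reads). *Ddx19b*, which acts in mRNA export at the nuclear pore, was found in Control 2 alone (16.92), with 799 split reads, 4.51% of the genic reads of that library (95% Clopper-Pearson interval 4.21% to 4.82%, counting error only). Its difference of −1.69 was the most negative of the list, but a gene found in 1 sample cannot pass the rule (exact permutation p = 1). With the number of genes as covariate the difference was −3.58 (permutation p = 0.307).

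*Dhx30*, needed for assembly of the mitochondrial ribosome, had the highest single value of the list, 19.92 in ALS 5, with 7470 split reads. That number equalled the split reads of *Smarcc1* and *Gm27855*, which overlap it. It was 2.07% of the summed genic split reads of the library (95% Clopper-Pearson interval 2.02% to 2.11%, counting error only), where it enters once for each of these genes. Of the other genes with a Dhx name, *Dhx35* and *Dhx57* were present once in each group, *Dhx33*, *Dhx32* and *Dhx58os* in 1 ALS library each, and *Dhx15*, which releases spliced introns, in Control 2 (7.79, 2 reads).

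**Figure D4:**
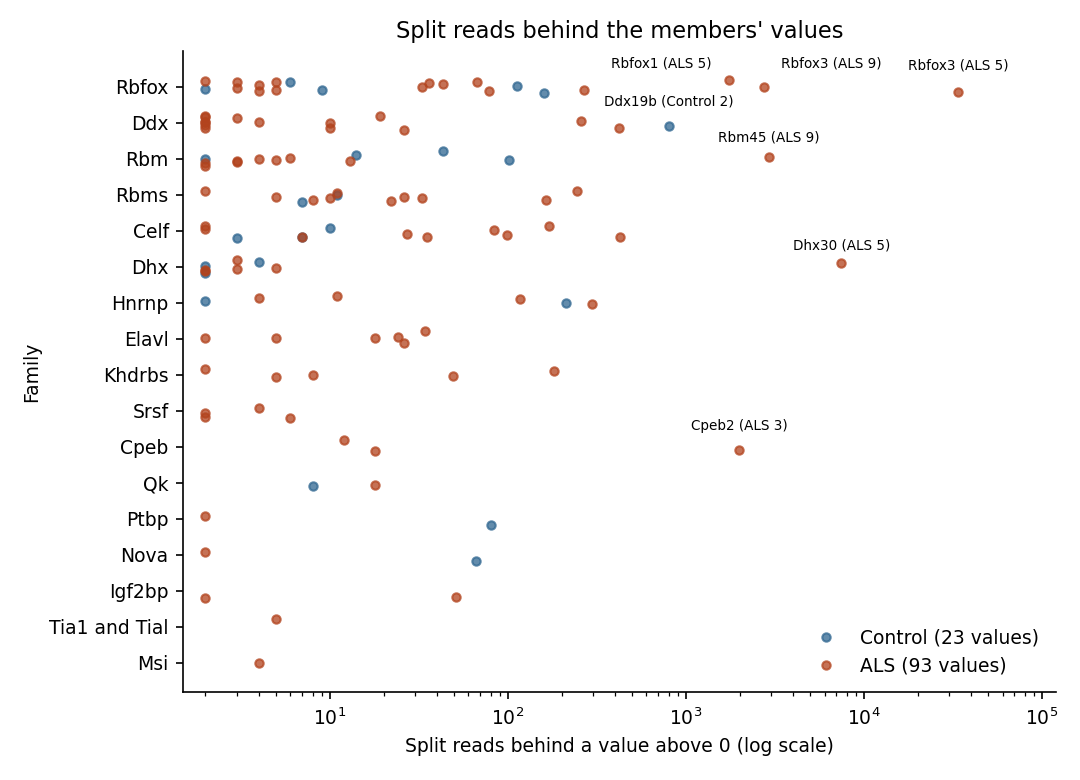
Split reads (horizontal axis, log scale) behind each of the 116 member values above 0, by gene family (rows), with 93 ALS values and 23 control values; vertical jitter within a row has no meaning. Most points lie at low counts, the medians being 8 reads in ALS and 9 in controls, and *Rbfox3* in ALS 5 stands at 33947.

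Depth behind the values was low in most cases. Of the 116 values above 0, 64 rested on 10 or fewer split reads (51 of 93 in ALS, 13 of 23 in controls), and 26 on the minimum of 2. The median was 8 reads in ALS and 9 in controls, beside 7 in both groups over all genes. Member reads were 12.0% of the genic reads of ALS 5, most of them from *Rbfox3* and *Dhx30*, and at most 1.70% in any other ALS library. In Control 2 they were 5.85%, most of them from *Ddx19b*.

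Because reads are assigned to each gene that an eccDNA overlaps, 1 circle can count for several genes. Another gene of the table overlapped 14 members, and 9 members had a value with the same number of split reads as the overlapping gene in the same sample. Besides those of *Rbfox3* and *Dhx30* given above, these were *Rbfox2* in ALS 7, *Khdrbs2* in ALS 1, *Dhx57* in ALS 8, *Dhx32* in ALS 9, *Ptbp3* and *Msi2* in ALS 1 and *Ptbp2* in Control 8.

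How often a member was found went with its length. Across the 59 members Spearman's rho between gene length and number of samples was 0.584, and across 8088 placed genes of the table it was 0.602. Genes are not independent replicates and share the same 19 libraries, so these are descriptions. None of the 28 members up to 50 kb was found in 3 or more samples (all genes 1.13%), 3 of 22 between 50 and 200 kb were (13.6%, all genes 16.1%), and 6 of 9 above 200 kb were (66.7%, all genes 70.5%).

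The members over 200 kb were found in a mean of 5.44 samples, against 4.02 for all genes of that length, and those up to 50 kb in 1.14 against 1.13. *Rbfox1*, *Rbms3* and *Celf2*, the longest members, were also those found most often. *Msi2*, *Celf4* and *Rbms1*, also over 200 kb, were found in 1 or 2 samples. Of the members over 200 kb 1 passed the rule (11.1%), beside 9.61% of all genes over 200 kb.

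**Figure D5:**
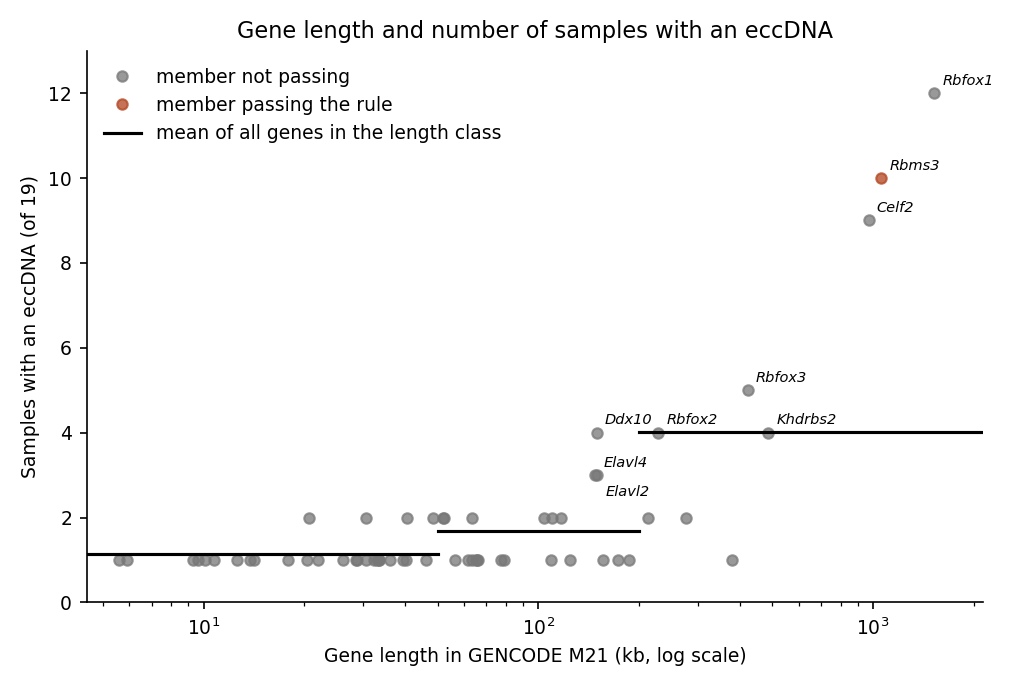
Number of samples with an eccDNA (of 19) against gene length in kb on a log scale, 1 point per member (n = 59), with the mean over all placed genes of the table in 3 length classes as black lines (1.13, 1.68 and 4.02 samples). *Rbfox1*, *Rbms3* and *Celf2* lie at the upper right, and *Rbms3* is the member that passed the rule.

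Presence in the table also went with length. Of 166 annotated protein-coding genes whose names match the rule, 34.9% were in the table, beside 27.5% of all 21924 protein-coding genes. Those in the table had a median length of 54.4 kb and those outside it 16.7 kb. All 3 Rbfox genes and both Nova genes were present, 11 of 43 Rbm, 11 of 37 Ddx, 7 names among the Dhx genes and 3 of 20 Hnrnp genes. The members lay on 18 chromosomes, with 10 on chromosome 2 and 6 on chromosome 4.

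The base composition and structure of the members were set beside those of all genes. Their median length was 52.2 kb (all genes 49.3 kb), the median GC content 42.4% (43.3%) and the median repeat-masked share 23.4% (25.1%). Exons made up a median of 13.8% of a member (8.94% over all genes), and the longest intron had a median of 12.0 kb (16.4 kb). Whether these differences exceed what a list of this size shows was not tested.

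Other genes of RNA metabolism were grouped by function, whatever their symbol. Over all genes of the table, the values to set beside these groups are 86.5% with a higher mean in ALS, a median difference of 1.19 and 1.33% passing. As with the members, a gene found in 1 or 2 samples could not pass. No ALS-linked gene, and no helicase outside the Ddx and Dhx names, was found in 3 or more samples. Of 14 ALS-linked RNA-binding genes 4 were in the table, all with a higher mean in ALS and a median difference of 1.85, and none passed. *Atxn2*, the ataxin 2 gene, was present in ALS 4 (6.42) and ALS 6 (17.49), with a difference of 2.66 (exact permutation p = 0.211). With the number of genes as covariate its difference was 9.32 (permutation p = 0.00581), past the threshold. ALS 6, with the higher value, had the fewest genes of the ALS group.

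Of 58 other splicing factors 23 were in the table, 20 with a higher and 3 with a lower mean (median 1.19), and none passed. *Srrm4*, which promotes neuronal microexons, was present in 4 ALS libraries (6.46 in ALS 3 and ALS 8, 8.67 in ALS 1, 14.42 in ALS 4) and no control, with a difference of 4.00 (exact permutation p = 0.0325), and of 1.25 with the number of genes as covariate (permutation p = 0.685). Of 60 genes listed under mRNA transport, translation and decay, RNA editing enzymes among them, 23 were in the table, 17 higher and 6 lower (median 1.00), and none passed. *Adarb2*, a brain member of the adenosine deaminase family, was present in 5 ALS libraries and in Control 1 (6.16), with a difference of 2.95 (exact permutation p = 0.0557) that turned to −2.12 with the number of genes as covariate (permutation p = 0.355).

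Of 17 RNA helicases outside the Ddx and Dhx names 6 were in the table, all with a higher mean (median 1.52), and none passed. *Mtrex*, the helicase of the nuclear exosome, was present in ALS 1 and ALS 3 (8.53 each), the 2 libraries with the most genes. Its difference was 1.90 (exact permutation p = 0.211), and −4.10 with the number of genes as covariate (permutation p = 0.0136).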

How the data were processed

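EccDNA of cervical cord was sequenced in 9 ALS and 10 control samples. The authors mapped the reads to mm10 with Circle_Finder, merged eccDNAs within 10 bp, dropped those under 2 split reads and mitochondrial ones, intersected the rest with GENCODE genes (release not given in the sources used here) using bedtools, and deposited log2 values, log2(PpGC + 1). PpGC is split reads times the longest gene length over the gene's length, not scaled between samples, and sequencing depth per library is not in the table used here. Groups came from the labels, and 0 columns belonged to other samples.

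From there, symbols were placed on GENCODE M21 (8088 of 8336 genes, all 59 members), and dividing the length factor out again turned 98.9% of values above 0 into whole split reads (within 0.02). The members and the other lists were chosen with earlier results of these data known. The two-sided Student test, with a difference above 1 and p under 0.01, ran on all genes, and single genes had a two-sided exact permutation test over 92378 splits. The seed for 100000 residual permutations was 20.

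Genes named by rule were those that passed, the Rbfox genes, members in at least 4 samples and the highest single value. The rule also took the 3 smallest exact p among those that did not pass and the 3 most negative differences. In each other list it took a gene found in the most samples, where *Atxn2* tied with *Ewsr1* and *Mtrex* with *Ythdc2*. Any other gene was named after its values were seen, and some list genes are not reported by name here. Alternatives were limma, the exact test, the number of genes as covariate, equal totals, no length scaling, a pseudocount of 100, presence alone, other thresholds, a replicate block and leaving out each sample. P-values measure spread between animals.

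Python 3.11.15, NumPy 2.4.6, pandas 2.3.3, SciPy 1.17.1, matplotlib 3.10.9, R 4.3.3 and limma 3.58.1 were used. The tests were checked on simulated data.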

Additional observations from a re-analysis of the deposited data

Results flagged for a closer look

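Of 34 groups of values, those of the named genes and of the numbers and shares of members per sample, some of them all at 0, 7 had a sample far from the others by Dixon's ratio of gap to range, where chance alone gives some flags. In 6 of them the ratio was 1, because a single sample was above 0. These were *Rbfox3* in controls (Control 2, 10.72), *Dhx30* in ALS (ALS 5, 19.92), *Ptbp2* in controls (Control 8, 12.40), *Rbm39* in controls (Control 10, 13.74), *Ddx19b* in controls (Control 2, 16.92) and *Adarb2* in controls (Control 1, 6.16). For *Atxn2* in ALS the ratio was 0.633, with ALS 6 at 17.49 and ALS 4 at 6.42 above the other libraries at 0.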

How the results depend on the processing

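The count of members higher in ALS, 1, was 2 with limma, 3 with a one-sided p (chosen after seeing the data), 5 at p under 0.05, and 0 with the number of genes as covariate, with equal totals, with a pseudocount of 100, at p under 0.001 and after Benjamini-Hochberg adjustment. Leaving out each sample gave 1 to 2 members higher in ALS (85 to 133 of all genes, 1.02% to 1.60%), *Rbms3* in every run and with it *Rbfox1* (without Control 8, ALS 4 or ALS 8) or *Rbfox2* (without ALS 1, ALS 3, ALS 5, ALS 6 or ALS 9). *Rbms3* lies on chromosome 9, so keeping only members on chromosomes 2 to 9, also chosen after seeing the data, left the count at 1. No share over all genes was taken for these chromosomes. When each sample was left out in turn, the difference of *Rbfox1* was 3.48 to 5.02. At 4.24, it passed with limma and with a one-sided p, and it did not pass with equal totals (2.75), a pseudocount of 100 (1.26) or the replicate block. With the number of genes as covariate, *Rbms3* turned to −0.83, *Celf2* to −1.99, *Khdrbs2* to −1.31, *Adarb2* to −2.12 and *Mtrex* to −4.10, *Rbfox1* went to 1.56 and *Srrm4* to 1.25, while *Atxn2* went to 9.32 (permutation p = 0.00581, past the threshold), *Ddx10* to 6.25, *Rbfox2* to 4.19, *Dhx30* to 4.12, *Ddx19b* to −3.58 and *Rbm39* to −0.58, and the cause was not tested. These covariate differences are extrapolations, since the number of genes nearly separates the groups. The mean difference in members per sample, 8.03, was 3.9 when at least 10 split reads were asked for and 5.01 with a log2 PpGC of at least 8, and of the members in 3 or more samples 9 had a higher mean in ALS, fewer because fewer were counted. Over all genes, 111 passed, against 166 with limma, 68 with the exact test, 60 with equal totals, 57 by presence, 26 higher and 84 lower with the covariate, and 9 with the pseudocount of 100. Samples with the same replicate number share only that number (correlations of deviations −0.0205 to 0.0226 over 9 pairs). The replicate block used these pairs and so also left out Control 10. With it 1 member passed, *Rbms3* (3.81), the difference of *Rbfox1* was 4.02, and 54 of all genes passed. Leaving out Control 10 without a block gave these same differences, with 98 of all genes passing. Low split reads limit single values, and RCA leaves circle numbers unknown.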
